A study of Drosophila melanogaster with 3 samples.

Results

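The peaks described here were the intergenic CG32006-GFP peaks that lay near genes but outside promoters. A row of the deposited optimal peak list was a member when its summit, the base the peak caller marked as the strongest, lay in no annotated gene of any biotype. The summit also had to lie more than 500 bp and at most 5000 bp from the nearest transcription start site (TSS) among protein-coding genes. By this rule 1263 of the 11665 optimal peaks were members, which is 10.8% of the list. In the 3 replicate lists, each limited to its 11665 strongest rows, the rule gave 1188, 1302 and 1205 members, or 10.6% ± 0.527 of the rows (SD, n = 3).

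The data came from chromatin immunoprecipitation with sequencing (ChIP-seq) of whole Drosophila melanogaster prepupae, pooled over both sexes. There was 1 group of 3 biological replicates and no second condition. All replicates carried a stable transgene for CG32006 tagged with GFP at its C-terminus, in a single transgenic line, and the tagged protein was pulled down with an antibody against GFP, although the antibody label itself reads CG32006. The age label reads 48 days, which is not a prepupal age, and the control named in the notes was not analysed here.

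Intergenic DNA close to a gene often holds enhancers, stretches that bind transcription factors and regulate a promoter from a distance, on either side of the gene. In compact genomes such as that of the fly, such elements commonly sit within a few kilobases of the gene. CG32006 has the synonym FoxJ1 in the RefSeq gene table and belongs by that name to the forkhead family of DNA-binding proteins. At the prepupal stage, pulses of the steroid hormone ecdysone direct the change of the larva into the pupa. The nearest gene is used below as a name for the place of a peak, and whether a peak regulates that gene was not measured.

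The summit windows of the strongest members on each side are printed because most members had low GC content at the summit. Each window reaches 50 bp either side of the summit and comes from the RefSeq copy of the Release 6 (dm6) genome, plus strand, 5′ to 3′. Capitals mark runs of at least 8 bases made only of A and T. They are those of the 6 strongest upstream members and the 4 strongest downstream members that were found in all 3 replicates and lay on X, 2L, 3L or 3R. Of the upstream windows, 2 belong to neighbouring members of tara.
fz, upstream, chr3L:14272529-14272629: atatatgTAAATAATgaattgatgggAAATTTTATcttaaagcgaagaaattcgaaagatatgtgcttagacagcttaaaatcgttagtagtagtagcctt
ds, upstream, chr2L:715520-715620: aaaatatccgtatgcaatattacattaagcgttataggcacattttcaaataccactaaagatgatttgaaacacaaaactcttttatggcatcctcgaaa
tara, upstream, chr3R:16221814-16221914: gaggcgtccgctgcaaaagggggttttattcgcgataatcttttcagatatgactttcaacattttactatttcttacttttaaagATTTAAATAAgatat
l(3)neo38, upstream, chr3R:11780263-11780363: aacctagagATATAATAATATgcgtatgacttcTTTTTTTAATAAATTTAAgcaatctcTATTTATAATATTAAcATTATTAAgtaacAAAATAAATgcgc
CG43131, upstream, chr3R:5113228-5113328: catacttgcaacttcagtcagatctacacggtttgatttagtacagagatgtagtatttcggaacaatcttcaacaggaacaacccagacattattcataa
tara, upstream, chr3R:16222098-16222198: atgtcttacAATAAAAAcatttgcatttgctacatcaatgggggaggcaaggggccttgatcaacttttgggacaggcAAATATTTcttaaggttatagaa
CG31668, downstream, chr2L:2202370-2202470: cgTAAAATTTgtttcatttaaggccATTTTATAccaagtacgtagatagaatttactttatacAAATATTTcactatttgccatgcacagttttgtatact
CG43245, downstream, chr3L:10776516-10776616: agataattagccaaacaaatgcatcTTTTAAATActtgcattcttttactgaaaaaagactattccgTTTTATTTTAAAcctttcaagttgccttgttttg
Ir67b, downstream, chr3L:10428883-10428983: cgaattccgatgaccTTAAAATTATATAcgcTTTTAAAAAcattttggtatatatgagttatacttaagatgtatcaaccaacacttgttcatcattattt
Paics, downstream, chrX:12756024-12756124: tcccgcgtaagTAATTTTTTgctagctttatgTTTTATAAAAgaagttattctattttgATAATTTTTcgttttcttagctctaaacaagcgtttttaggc

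All of these windows but those of ds and CG43131 held a run marked in capitals. The longest run was 18 bp, upstream of l(3)neo38, where the window had a GC content of 20.8%. The longest run without a G or C was 7 bp in the window of ds, at a GC content of 30.7%, and 6 bp in that of CG43131, at 36.6%. The word TATTTAC, a variant of the forkhead core, was found by search on both strands in the window of fz and in none of the other printed windows. The core TGTTTAC was in none of them. A match to a word is a description of the letters and not evidence of a bound site.

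Members were dense compared with the more remote intergenic DNA and lay mostly on the upstream side of genes. The bases of the genome that met the rule came to 12.2 Mb, 9.16% of the 6 chromosome arms, and held 103 member summits per Mb (replicate lists 101 ± 5.02, SD, n = 3). Distal intergenic bases, more than 5000 bp from a TSS, held 62.8 summits per Mb (60.7 ± 5.24, n = 3). Promoter-proximal bases, within 500 bp of a TSS, held 175 per Mb (184 ± 14.8, n = 3), and introns held 113 per Mb (111 ± 0.940, n = 3). The density of the members was thus above that of distal intergenic DNA and below that of promoters in each replicate list, with 97.0, 106 and 98.4 per Mb in replicates 1, 2 and 3 for members against 59.7, 66.3 and 55.9 per Mb for distal intergenic DNA. Over all arms the density was 87.3 per Mb.

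Of the members, 967 (76.6%) were upstream of the nearest TSS and 295 were downstream of it, beyond the end of the gene. The remaining member, on 2L between CG10348 and CG42752, had a TSS at equal distance on each side. The upstream share was 75.6%, 75.8% and 76.2% in replicates 1, 2 and 3 (75.9% ± 0.300, SD, n = 3). Of the bases that met the rule, 69.3% were upstream. Per Mb there were 114 upstream summits and 78.5 downstream summits, a ratio of 1.45 (1.39 ± 0.0226 over the replicate lists, n = 3). The lowest ratio of a replicate was 1.37.

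The excess on the upstream side was greatest close to the TSS. Between 500 and 1000 bp, 116 summits per Mb lay upstream (replicate lists 120 ± 3.17, SD, n = 3) and 48.3 per Mb downstream (44.3 ± 4.03, n = 3). The downstream value rests on 12 members, since only 0.248 Mb met the rule there. A downstream summit had to lie beyond the gene, so this bin holds only places where the gene ended within 1000 bp of that TSS. The near bins thus compare unlike sets of genes. With the side set by the nearest end of a flanking gene, the upstream share was 66.8%, and the share of bases by that rule was not counted. The upstream density was highest between 1000 and 2000 bp, at 131 per Mb (125 ± 6.14, n = 3), against 67.1 per Mb downstream (71.0 ± 1.34, n = 3). Between 4000 and 5000 bp both sides were close, with 102 per Mb upstream (96.5 ± 5.65, n = 3) and 89.1 per Mb downstream (85.8 ± 7.46, n = 3). The upstream value was still the higher in each replicate, at 90.5, 102 and 97.4 against 82.8, 94.2 and 80.2 per Mb. The median distance to the TSS was 1860 bp for upstream members and 2974 bp for downstream members.

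**Figure D1:**
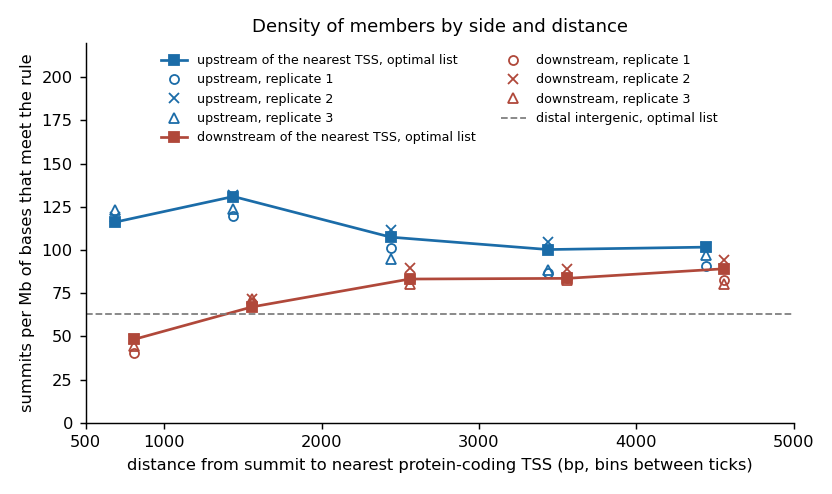
Summits per Mb of bases that meet the rule (vertical axis) by distance from the nearest protein-coding TSS in bp (horizontal axis, bins between the ticks), for upstream (blue) and downstream (red) members. Squares and lines are the optimal list, open symbols the 3 replicate lists, and the dashed line the density of distal intergenic summits, 62.8 per Mb. Within each replicate the upstream value lies above the downstream value in every bin. From 3000 bp on the sides come close, and values of different replicates overlap between them.

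The orientation of the flanking genes gave a related picture. Stretches between genes that point away from each other (divergent) held 477 members, 37.8% of them, on 31.5% of the bases that met the rule, or 124 per Mb (119 ± 7.38 over replicate lists, SD, n = 3). Stretches between genes in the same direction held 618 members at 97.1 per Mb (94.6 ± 3.97, n = 3). Those between genes that point at each other (convergent) held 168 members at 83.7 per Mb (84.8 ± 4.18, n = 3). The divergent stretches were the densest in each of the 3 replicate lists, with 114, 128 and 117 summits per Mb in replicates 1, 2 and 3. Starts of non-coding genes were also near some members: 84 members (6.65%; replicate lists 6.83% ± 0.397, n = 3) lay within 500 bp of one, against 3.34% of the bases.

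The signal of the members, column 7 of the peak list on a scale that the sources used here do not state, covered a wide range. It went from 197 to 6574 with a median of 413 and quartiles of 271 and 772. The medians over members in the replicates' own lists were 137, 142 and 165 in replicates 1, 2 and 3. Distal intergenic peaks had a median of 365 in the optimal list and of 113, 128 and 142 in the replicates, so members were stronger in each replicate. The difference in log2 of the medians was 0.22 ± 0.06 (SD, n = 3), with an exact two-sided sign-flip permutation p of 0.25, the smallest that 3 replicates allow. No comparison over 3 replicates can therefore pass a threshold of 0.05.

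Promoter-proximal peaks were stronger than members, with a median of 541 in the optimal list and of 154, 198 and 192 in the replicates. The log2 difference of members against promoter-proximal peaks was -0.29 ± 0.17 (SD, n = 3), negative in each replicate, with an exact permutation p of 0.25. Members and intronic peaks, whose median was 441, were not told apart. Their log2 differences were 0.02, -0.12 and -0.04 in replicates 1, 2 and 3, with a mean of -0.05 ± 0.07 (n = 3) and an exact permutation p of 0.5. The strongest 10% of the whole list took in 8.55% of members, 3.59% of distal intergenic, 17.9% of promoter-proximal and 8.39% of intronic peaks.

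**Figure D2:**
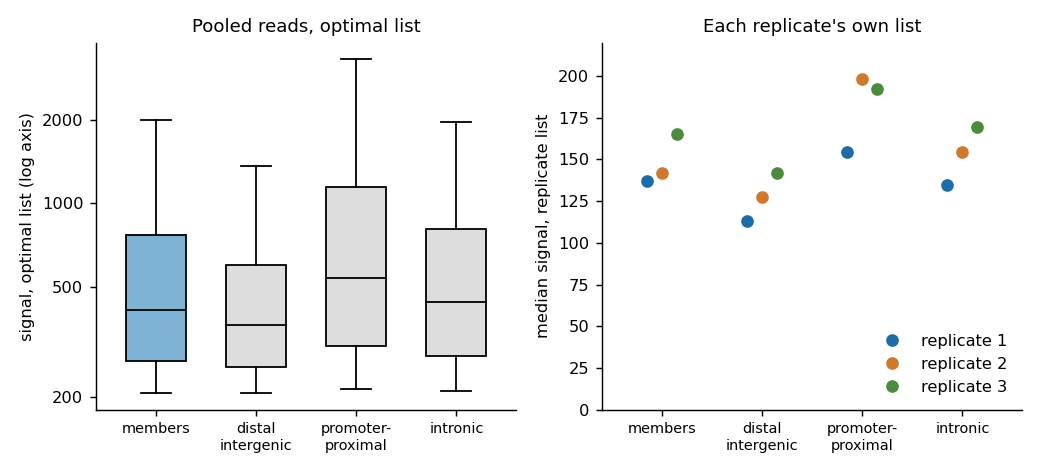
Left, signal of the peaks in the optimal list on a log axis, with boxes from the 25th to the 75th percentile, the median as a line and whiskers at the 5th and 95th percentiles. Right, the median signal in each replicate's own list, 1 point per replicate. Members lie above distal intergenic and below promoter-proximal peaks in every replicate, and their medians of 137, 142 and 165 are close to those of intronic peaks.

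Within the members, those upstream of a gene were somewhat stronger than those downstream. The medians were 420 upstream and 400 downstream in the optimal list. By distance, the gap was clear only up to 2000 bp. It was 430 against 346 between 500 and 1000 bp, on 12 downstream members. Between 1000 and 2000 bp it was 447 against 336, on 58 downstream members. In the 3 bins beyond, the medians were close, at 394 against 404, 404 against 400 and 424 against 416. In the replicate lists the log2 difference was 0.13, 0.15 and 0.17, a mean of 0.15 ± 0.02 (SD, n = 3; exact permutation p = 0.25). Split at the median signal, the stronger members had 78.3% upstream and the weaker ones 75.0%. That difference was 2.69, 5.07 and 4.32 percentage points in replicates 1, 2 and 3, a mean of 4.03 ± 1.21 (n = 3; exact permutation p = 0.25). The upstream share did not rise steadily with signal, since it was 81.7% in the strongest 126 members and 79.4% in the weakest 126. The −log10 q value separated members little, because 75.1% of them sat at its highest value of 4.26.

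Most members recurred in the replicates, at a rate close to that of the list as a whole. A replicate supported a member if 1 of its 11665 strongest rows contained the member's summit. By this count 903 members (71.5%) were supported by all 3 replicates, beside a background of 73.6% over all optimal peaks, 250 by 2, 101 by 1 and 9 by 0. The share supported by all 3 was 71.9% for distal intergenic, 72.3% for promoter-proximal and 75.0% for intronic peaks. Support followed signal, with 97.6% of the strongest 126 members and 9.52% of the weakest 126 found in all 3 replicates. The 9 members with no support had signals from 200 to 256, and 1 of them lay upstream of ptc. The optimal list was called on the pooled reads of the same replicates. By its name it was also thresholded by IDR, a measure of how reproducible peaks are. This support is therefore not an independent check.

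The strongest member of all lay in a short stretch between COX7AL2, a gene for a cytochrome c oxidase subunit, and CG31668. Its summit at 2202420 on chromosome 2L was 3746 bp downstream of the TSS of CG31668, and its signal of 6574 ranked 21 in the whole optimal list. The signal was 1943, 2215 and 2428 in replicates 1, 2 and 3. The same stretch of 5808 bp held a second strong member, 3365 bp upstream of COX7AL2, with a signal of 3749 and replicate values of 1050, 1298 and 1393. Both were thus found in each replicate at levels far above the replicate medians of 137 to 165.

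The next strongest members lay upstream of Psc, fz and ds. Psc encodes a subunit of a Polycomb repressive complex, and a member 4233 bp upstream of its TSS had a signal of 4437 (1294, 1497 and 1664 in replicates 1, 2 and 3). That summit was also 140 bp from the TSS of a non-coding gene. A member 1764 bp upstream of fz, which encodes the Frizzled receptor for Wnt ligands and planar polarity, had a signal of 4325 (1307, 1335 and 1704). A member 587 bp upstream of ds, which encodes the cadherin Dachsous of the planar polarity and Hippo pathways, had a signal of 4192 (1230, 1536 and 1422). Another Polycomb group gene, ph-d, had a summit 883 bp upstream with a signal of 3283 (928, 910 and 1422), and its window had a GC content of 13.9%. All these members were supported by all 3 replicates.

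The gene tara, which encodes a transcriptional co-regulator, had 4 members upstream, and each of them was strong. Their signals ran from 2515 to 4125, and all 4 were supported by all 3 replicates. The strongest, 3787 bp from the TSS, had 1083, 1477 and 1581 in replicates 1, 2 and 3. The next, 3503 bp from the TSS, had 918, 1060 and 1544. It shared its peak coordinates with the member 3168 bp from the TSS, and the peak of the strongest member overlapped them. In replicates 1 and 3 the same listed region gave the signal of both members with shared coordinates. These overlapping rows are therefore not separate sites, and their support is not separate either. The stretch between mtSSB and tara, 20400 bp long, held 8 members in the optimal list and 7, 9 and 7 in replicates 1, 2 and 3.

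The other members among the 15 strongest supported by all 3 replicates had signals from 3405 to 4091. They lay upstream of l(3)neo38, CG43131, Atf3, Msr-110, CG43658, stv and CG44004 and downstream of CG43245. Atf3 encodes a basic leucine zipper transcription factor, and its member 1886 bp upstream had a signal of 3698 (1026, 1328 and 1383 in replicates 1, 2 and 3). The gene stv encodes a co-chaperone of the BAG family, and its member 530 bp upstream had a signal of 3422 (1001, 1245 and 1197). Of the 15 members, 13 were upstream and 2 downstream.

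**Figure D3:**
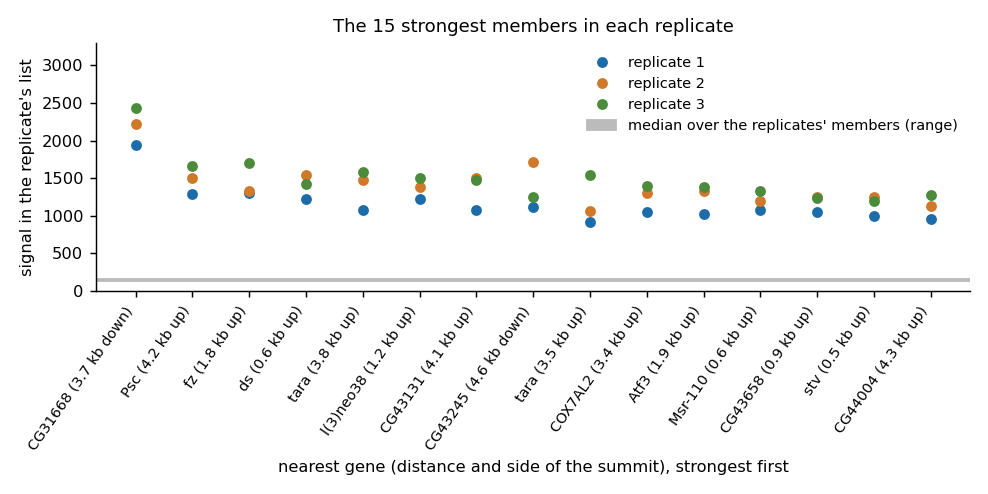
Signal in each replicate's list (vertical axis, 1 point per replicate) of the 15 strongest members supported by all 3 replicates, labelled by nearest gene, distance and side. The grey band is the range of the replicate medians over members, 137 to 165. Every point lies above 900, and the member near CG31668 is the highest in each replicate.

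The strongest members on the downstream side after CG31668 were those of CG43245, Ir67b, CG33467 and Paics. The member 4641 bp from the TSS of CG43245 had a signal of 4035 (1112, 1715 and 1254 in replicates 1, 2 and 3). That of Ir67b, an ionotropic receptor gene, was 3050 bp from the TSS and had a signal of 2712 (892, 897 and 961). Those of CG33467 and of Paics, which encodes an enzyme of purine synthesis, had signals of 2483 and 2372. The members near Ir67b, CG33467 and Paics lay in convergent stretches, between 2 gene ends.

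Members were nearest to few genes, and some genes had many. In all, 832 of 13945 protein-coding genes had a member, which is the background of 5.97% for the lists below (782, 865 and 777 genes in replicates 1, 2 and 3). Of these, 551 had 1 member, 176 had 2, 60 had 3 and 45 had 4 or more. Among genes with a member, 246 (29.6%; replicate lists 29.5% ± 1.11, SD, n = 3) also had a promoter-proximal summit, beside 19.1% of all protein-coding genes (20.2% ± 1.90, n = 3). Only 6425 of the 13945 genes were nearest to bases that met the rule and could have a member. The share among those genes was not counted, so the 2 shares are not like for like. For single peaks the nearest gene had such a summit in 29.5% of members and in 19.7% of distal intergenic peaks. The share was 34.3% for upstream members and 13.6% for downstream members.

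Some members lay close together. The 1263 rows formed 1151 sets that did not overlap, beside 10498 sets for the 11665 rows of the whole list, and 215 members (17.0%) had the summit of another member within 250 bp, so rows are not independent sites. They lay in 747 stretches between protein-coding genes, of which 466 held 1 member, 148 held 2 and 133 held 3 or more. The most were 10, in the 26875 bp between CG17154 and vers on 3L, with signals from 276 to 1124. Replicates 1, 2 and 3 had 10, 7 and 8 members there.

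CG7557 and CG42852 had 8 members each, and Gr93a, a gustatory receptor gene, had 7. The members of CG7557 had signals from 276 to 1370, and 7 of the 8 were supported by all 3 replicates. Those of CG42852 had signals from 236 to 1069, and 4 of the 8 were supported by all 3. CG13898, Dyro, Mst87F, CG5953, CG6163 and vers had 6 members each. The ds gene had 4 members with signals from 312 to 4192, and all 4 were supported by all 3 replicates.

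Among the arms, 3L stood above the others in density. It held 361 members, 143 per Mb of bases that met the rule, against 102 on 3R, 95.0 on 2L, 89.9 on X and 82.6 on 2R. In replicates 1, 2 and 3 the 3L counts were 334, 353 and 343. Part of the 3L members lay in 1 stretch, chosen after its values were seen, between the summits at 11239711 and 11486102 (246 kb). It held 42 members in 31 sets that did not overlap, 499 per Mb, with 38, 38 and 34 members in replicates 1, 2 and 3. The stretch held 99 optimal summits of all classes in its 246 kb, beside 87.3 per Mb over all arms. It was thus not dense in members alone. Without this stretch the density of members on 3L was 130 per Mb, still the highest of the arms. Its nearest genes included CG7557, CG6163, Dyro, scyl and chrb, and the last 2 encode related inhibitors of TOR signalling. Chromosome 4 had 0 members in the optimal list on 0.0621 Mb, and 0, 0 and 2 in the replicate lists.

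Gene lists were counted in 2 ways, as the share of genes with a member and as members per Mb of the bases nearest to the list's genes that met the rule. The second count allows for genes with little intergenic DNA around them. Genes of the ecdysone response were above the background by both, with 7 of 31 genes (22.6%) and 13 members at 299 per Mb, with 253, 299 and 276 per Mb in replicates 1, 2 and 3. The background was 5.97% of genes and 103 members per Mb. The list was compiled around the hormone that acts at this stage. Like the other lists, it was chosen with earlier results of these data known, so these counts are not an independent check. Its genes with a member were Eip78C, Hr38, Blimp-1, Ldh, Eip75B, ImpE2 and ImpE1.

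The strongest member of the ecdysone list lay 2109 bp upstream of Eip78C, a nuclear receptor gene, with a signal of 1668 (497, 540 and 638 in replicates 1, 2 and 3). Hr38, the gene of another nuclear receptor, had a member 2344 bp upstream with a signal of 1288, found in replicates 1 (376) and 3 (511) and in no listed region of replicate 2. Blimp-1, which encodes a zinc finger repressor, had a member 4304 bp upstream with a signal of 1132 (352, 521 and 261). Ldh, the lactate dehydrogenase gene, had members 950 and 3880 bp upstream with signals of 1011 and 1030. These members were weaker than the 15 strongest.

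Signalling ligands and receptors also had many members, 15 next to 9 of 52 genes (17.3%), or 179 per Mb (167 ± 23.9, SD, n = 3). Besides fz they included dpp, the gene of a BMP-type ligand, with a member 1742 bp upstream at a signal of 2620 (710, 965 and 965 in replicates 1, 2 and 3). The gene upd3, for a ligand of the JAK/STAT pathway, had 3 members between 3837 and 4697 bp upstream, with signals of 580 to 1137. The Hedgehog receptor gene ptc had members whose signals ran from 201 to 1035, the weakest of them found in none of the replicates' strongest rows. The others of the list were Wnt4, hh, Pvf2, upd2 and Ser.

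The forkhead factor list, the family of CG32006 itself, had 7 members next to 5 of 16 genes (31.3%), or 122 per Mb (140 ± 17.5, SD, n = 3). The share of genes was above the background. The density was above the 103 per Mb over all members by a smaller factor, with 157, 140 and 122 per Mb in replicates 1, 2 and 3. It rests on only 7 members. The strongest belonged to foxo, the forkhead gene of the insulin pathway, which had members 4622 and 3343 bp upstream. The first had a signal of 2895 (890, 1073 and 937 in replicates 1, 2 and 3) and the other 2732 (821, 987 and 962). The member upstream of bin, at a signal of 1435, was found in replicates 1 and 2 and in no listed region of replicate 3. Its summit at 6989328 lay at the edge of its peak, which ran from 6989327 to 6989598. A listed region had to contain that base, so a region just beside it would not count. The members of slp2 and croc were weak, with signals of 387 and 385, and FoxL1 was the fifth gene.

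For other lists, too, the 2 counts differed. Imaginal disc patterning factors had a member at 11 of 55 genes (20.0%), yet 97.1 members per Mb (76.9 ± 19.5, SD, n = 3), not above the value over all members. They included dsx, the sex determination gene, with a member 2425 bp upstream at a signal of 1579 (482, 601 and 472 in replicates 1, 2 and 3), ct at 1418, bab2 at 865 and Optix at 556. Chemoreceptor genes had a member at 21 of 179 genes (11.7%) and 109 members per Mb (110 ± 5.06, n = 3), and cuticle protein genes at 17 of 123 (13.8%) and 121 per Mb (105 ± 9.28, n = 3). Both lists were near the overall density. Promoter-proximal summits were found at 2 of the 179 chemoreceptor genes and at 3 of the 123 cuticle genes, beside 19.1% of all protein-coding genes. Of the ecdysone list 17 of 31 genes had one, and of the clock list 6 of 12. The strongest chemoreceptor member was 2490 bp upstream of Gr93d, at a signal of 3102 (894, 916 and 1291), and the strongest cuticle member 647 bp upstream of Cpr49Ah, at 1765 (498, 629 and 633).

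Several lists rest on few members and little DNA. Heat shock protein genes had 6 members on 0.0120 Mb, 5 of them next to Hsp60B and 1 next to stv, or 499 per Mb (471 ± 127, SD, n = 3). Of those next to Hsp60B, 3 were upstream, in the same stretch as the members of ds. That stretch held 7 members in all. Chromatin and insulator genes had 5 members next to Psc and ph-d, or 415 per Mb, on 0.0121 Mb, although only 2 of 42 genes (4.76%) had one. Notch targets of the bHLH class had 3 members, led by E(spl)m3-HLH at a signal of 1374 (418, 429 and 537 in replicates 1, 2 and 3). The counts were 4 of 22 proneural and neuronal genes, 2 of 12 clock genes, 2 of 16 cell death genes, 2 of 13 genes for matrix metalloproteinases and basement membrane, and 2 of 25 insulin and TOR genes. They were 1 of 23 fat body and lipid genes, 2 of 37 immune genes and 2 of 92 ribosomal protein genes, the last at 32.0 members per Mb (42.7 ± 9.24, n = 3). Per Mb, the proneural (62.9), cell death (69.4), fat body (71.3) and immune (76.3) lists were below the 103 over all members. The proneural list rests on 4 members and the others on 2 each. In replicate 3 the cell death (104) and fat body (107) lists were not below the 103. The clock (140), matrix metalloproteinase (172) and insulin and TOR (164) lists were above the 103, on 2 or 3 members each. For the clock list the density was 0 in replicate 3. The 8 Hox genes and the 20 glue and salivary gland genes had 0 members, on 0.0213 and 0.00279 Mb.

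**Figure D4:**
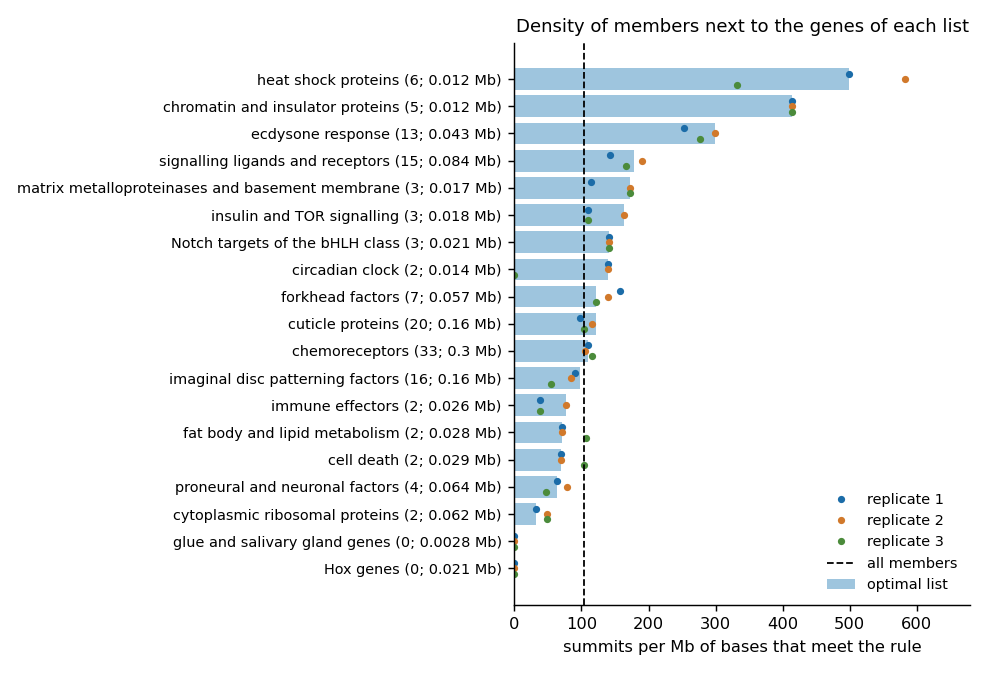
Members per Mb of the bases that meet the rule and are nearest to the genes of each list (horizontal axis), with the number of members and the Mb in brackets. Bars are the optimal list, points the 3 replicate lists, and the dashed line the 103 per Mb over all members. The ecdysone list (299 per Mb) and the signalling list (179 per Mb) rest on 13 and 15 members, and the highest bars rest on 6 and 5. Points of all 3 replicates lie above the line for these 4 lists and for 5 others, the forkhead, Notch target, matrix metalloproteinase, insulin and TOR, and chemoreceptor lists.

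Low GC content at the summit was shared by most members. The mean GC content was 31.8% in the windows at the summits and 43.7% in windows of the same length centred 500 bp away on either side. The difference was -11.5, -10.2 and -12.3 percentage points in replicates 1, 2 and 3, a mean of -11.3 ± 1.08 (SD, n = 3; exact permutation p = 0.25), and replicate 2 had the smallest dip. In 1079 members (85.4%) GC content was lower at the summit than in the flanks. Over all bases that met the rule the content was 40.4%, so the flanks lay above it. The dip was also found at distal intergenic peaks (31.7% at summits, 44.5% in flanks), promoter-proximal peaks (34.0% and 44.4%) and intronic peaks (32.6% and 43.0%), so it was not limited to members. It was deeper in the strongest 126 members, at 30.3%, than in the weakest 126, at 34.9%.

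Outside the optimal list the dip was shallow. The pooled list is named as peaks and background, so its lower rows take in background. The 18335 rows of it that ranked below the optimal list held 2275 regions that met the same rule. Their summits had a GC content of 39.4% and their flanks of 42.6%, a difference of -3.15 percentage points, against -12.0 for the members. Of these regions 72% lay upstream of the nearest TSS, against 76.6% of the members and 69.3% of the bases that met the rule.

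**Figure D5:**
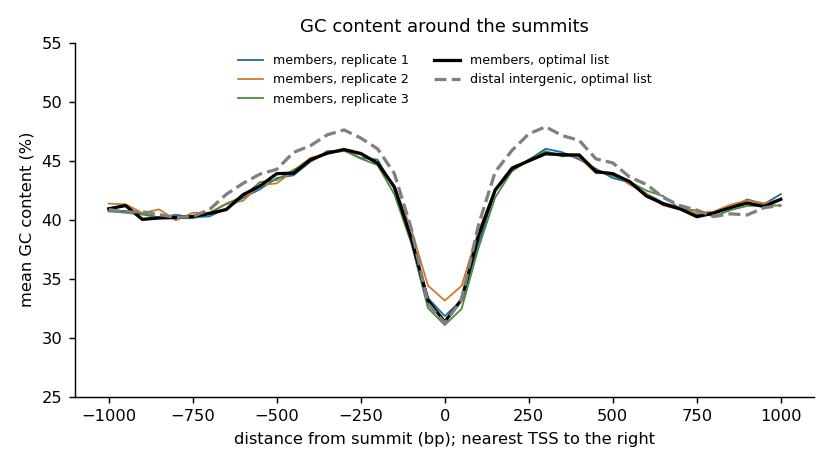
Mean GC content in percent (vertical axis) by distance from the summit in bp (horizontal axis), turned so that the nearest TSS is to the right. The 3 replicate lists (coloured) and the optimal list (black) are members, and the dashed grey line is the distal intergenic peaks. All curves fall to between 31 and 34% at the summit and rise to between 45 and 48% at 300 bp.

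The 2 words with the highest ratios of summits to flanks were made only of A and T. Words were searched on both strands, and the printed windows above show such stretches in capitals. ATATAT was found in 17.6% of member summit windows and 6.45% of their flanks, a ratio of 2.72 (2.73 ± 0.0547 over the replicate lists, SD, n = 3), and in 15.1% of all optimal summit windows. TAATTA, the core of many homeodomain sites, was found in 12.8% of summit windows and 6.22% of flanks, a ratio of 2.06 (1.78 ± 0.165, n = 3), and in 10.6% of all optimal windows. AAAAAA was in 28.6% of summit windows and 18.0% of flanks, and in 29.3% of all optimal windows. The median longest run of A and T was 10 bp at the summits and 8 bp in the flanks.

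The forkhead core TGTTTAC was found in 21 member windows (1.66%) and in 1.43% of flanks, a ratio of 1.17 (1.27 ± 0.272, SD, n = 3), and in 2.23% of all optimal windows. The variant TATTTAC, present upstream of fz, was in 56 member windows (4.43%) and in 2.49% of flanks, a ratio of 1.78 (2.04 ± 0.346, n = 3), and in 4.18% of all optimal windows. The variant TGTTTAT was the most frequent, in 63 member windows (4.99%) and 3.29% of flanks, a ratio of 1.52 (1.22 ± 0.105, n = 3), and in 4.98% of all optimal windows. For each of these 3 words the share in members was close to, or below, that in the whole list. TGTTTGC, which holds more G and C, was less frequent at the summits, 1.27% against 3.84% in flanks. So were the GAGA factor word GAGAG (7.52% against 12.6%), CAGCTG (1.82% against 4.83%) and CACACA (5.78% against 10.9%). Words with G and C were not all less frequent, since CTTTGAA had a ratio of 1.56 (1.36 ± 0.237, n = 3), AGATAAG of 1.40 (1.53 ± 0.341, n = 3), TCGATA of 1.37 (1.31 ± 0.259, n = 3) and TGACTCA of 1.33 (1.46 ± 0.364, n = 3). The windows differed in GC content as given above, and its part in these shares was not tested.

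The distance limits cut through a continuous range of peaks. Just outside the inner limit lay a peak exactly 500 bp from the TSS of CG43815, with a signal of 487, and just inside it the member 501 bp from Cpr97Eb, with a signal of 216. At the outer limit the last member was 4998 bp from Tollo, with a signal of 1570, and the first peak beyond it 5008 bp from hid, with a signal of 1323.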

How the data were processed

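The authors deposited, per the file headers, peak lists in dm6 for each of the 3 replicates (30000 rows each), for pooled reads, and as an optimal list. Their signal column is the authors' own and has no stated scale. The −log10 q column and the summit offsets are as deposited. By its name the optimal list was thresholded by IDR (irreproducible discovery rate), a measure of how reproducible peaks are. The pooled list is named as peaks and background, the input for IDR. The sources used here give neither aligner nor peak caller, and no threshold values or read depth. Precision is therefore limited by the 3 replicates, and depth is unknown.

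Summits were the peak start plus the offset and were placed on the Ensembl release 115 annotation of dm6, with the RefSeq Release 6 genome, in Python 3.11.15 with numpy 2.4.6 and pandas 2.3.3 (figures with matplotlib 3.10.9). In the optimal list, 9 offsets passed the peak end, 2 of them in members. Replicate lists were limited to the 11665 strongest rows. Replicate signals are those of the strongest listed region that holds the summit, so neighbouring summits can share 1 region. Classes were compared by the exact two-sided sign-flip permutation test over replicates, and the steps were tested on simulated data. Windows reached 50 bp either side and flanks were 500 bp away. Peaks were named by the nearest TSS for the 15 strongest members found in all 3 replicates, up to 4 genes per list, genes with 4 or more members, the 5 strongest downstream members and peaks at the limits. Of 421 list entries given by symbol, 13 matched through a RefSeq synonym and 8 had no unique match. Members, lists and tests were chosen with earlier results of these data known. Alternatives were other limits, summits, annotations, windows, overlap rules, the mean −log10 q in place of the signal, the strongest 50% of peaks and leaving out each replicate. Lists in dm3 were not used.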

Additional observations from a re-analysis of the deposited data

How the results depend on the processing

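Of 109 alternative values, 84 counted as the same, 21 moved and 4 reversed. Differences with a test counted as the same if they kept their sign, and ratios if they stayed on the same side of 1. Shares had to stay within the replicate SD, and counts within 1.5 times. The p-values had no part in these labels. Without each replicate in turn, the log2 difference between members and distal intergenic peaks was 0.28 to 0.32, against 0.18, and the upstream share of stronger minus weaker members 5.84 to 6.02 percentage points, against 3.33. The GC difference, -12.0 points, was -9.92 in windows of 100 bp either side and -9.51 against flanks 1000 bp away. The log2 difference to intronic peaks, -0.10, was -0.0043 in the strongest 50%. With the mean −log10 q in place of the median signal, the differences in the optimal list kept their sign. They were 0.029 against distal intergenic, -0.075 against promoter-proximal and -0.034 against intronic peaks. For distal intergenic peaks the exact sign-flip p was then 0.5. By this measure the 3 replicates did not all share a sign in any of these comparisons. The share of the list that were members moved to 10.0% in the strongest 50% of peaks, to 8.98% with an inner limit of 1000 bp and to 11.9% when only protein-coding genes counted as genes. The upstream share moved to 76.3% with 1 row per set of coordinates, 78.5% in the strongest 50%, 72.9% with the limit of 1000 bp, 77.5% with the 5′ end of each gene as its TSS, 76.2% with only protein-coding genes counted and 76.2% with 1 row per set of overlapping rows, and to 66.8% when the side was set by the nearest end of a flanking gene. Without each replicate in turn it was 75.5% to 76.0%. The share supported by all 3 replicates moved to 93.5% in the strongest 50%, 89.4% with replicate lists of 2 times the length and 55.3% with a reciprocal overlap of 50%. Without each replicate in turn, the share supported by both others was 76.6% to 78.9%. The log2 difference between members and intronic peaks reversed without each replicate in turn, to 0.0028 to 0.0045, where only the optimal peaks supported by both others were kept. The ratio for TGTTTAC reversed to 0.941 in windows of 100 bp either side. Genes with a member numbered 449 in the strongest 50%, and 3L had 130 members per Mb without its dense stretch. The cause of these shifts was not tested. The single rows per set of overlapping rows, the gene counts, the 3L value and the left-out replicates for the split by signal were added after seeing the data. Leaving out a replicate removed peaks and not that replicate's reads from the pooled calls. With 1 group no replicate block between groups could be fitted, and classes were compared within each replicate. With 3 replicates the smallest sign-flip p is 0.25, and read depth, which limits weak peaks, is unknown.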
